A study of Mus musculus with 8 samples.

Results

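The genes described here are 10 transcription factor genes, many of them of the immediate early type. They are the FOS genes Fos, Fosb, Fosl1 and Fosl2, the JUN genes Jun, Junb and Jund, the small MAF gene Maff, and the early growth response genes Egr1 and Egr2. They were taken by symbol from the deposited gene table, and all 10 were found among its 45777 genes. RNA was sequenced from primary hepatic stellate cells of male wild-type C57BL/6 mice, either transfected with a control siRNA (siControl, 4 libraries) or with an siRNA against the kinase PAK4 (siPAK4, 4 libraries), and the study asked what silencing of PAK4 does to the transcriptome of stellate cells as they activate. All 8 libraries carry the label of batch 1. Whether the replicates are separate animals or cultures is not in the labels, so the p-values reflect only how far these libraries differ, a spread that may be technical.

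AP-1 is a dimer of leucine zipper proteins that binds short palindromic DNA sites. FOS proteins cannot pair with each other and need a JUN partner, whereas JUN proteins can also pair among themselves. EGR proteins bind GC-rich sites through zinc fingers, and MAFF is a small MAF protein that lacks an activation domain of its own. Most of these genes are switched on within minutes by serum, growth factors or stress through MAP kinases and serum response factor, and in stellate cells AP-1 is known for its part in the myofibroblast programme, JUND in particular as an activator of Timp1.

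Hepatic stellate cells store vitamin A in the healthy liver and turn into collagen-producing myofibroblasts on activation. CPM below are read counts scaled to the TMM-adjusted library size. Libraries held 55728583 to 61535063 counts. The target gene Pak4 was lower in all siPAK4 libraries, with 17.2 ± 1.14 CPM in siControl against 6.32 ± 1.13 CPM (SD, n = 4 per group; log2 fold change −1.45, adjusted p = 9.4e-06 by edgeR's quasi-likelihood test). siPAK4 replicate 3 lay apart from the other siPAK4 libraries on the second principal component, which held 13.7% of the variance. Stellate cell markers were present, but the vitamin A-storage gene Lrat had only 57 reads over all libraries. Macrophage markers summed to 9150 to 10600 CPM in siControl and 5110 to 8270 CPM in siPAK4, with 9 of 12 tested markers lower and 0 higher. Endothelial markers summed to 6590 to 6840 CPM and 3940 to 5740 CPM, with 7 of 12 lower and 3 higher, and stellate markers to 1380 to 1770 CPM and 882 to 1090 CPM, with 6 of 11 lower and 0 higher. In the hepatocyte list 3 of 6 tested markers were higher and 1 lower, with sums of 360 to 376 CPM and 223 to 333 CPM. Most of this sum is Trf, the marker that was lower (mean 363 CPM in siControl and 286 in siPAK4). The 3 higher markers were at low levels: Alb (1.75 against 7.83 CPM), Serpina1a (0.106 against 0.631) and Ahsg (0.172 against 0.633). In the mesothelial list 3 of 6 were lower and 0 higher. Of the neutrophil and lymphocyte markers only S100a8 could be tested, it did not pass, and Ly6g was at 0 in all libraries. These cell types can also express AP-1 and EGR genes, and their part in the values below was not tested. In such mixed RNA, fewer cells of a type, less RNA per cell and lower expression of the marker genes themselves cannot be told apart. Among all tested genes 14.5% were called lower and 12.4% higher. Markers of the same list differed. Among the macrophage markers Cd5l fell by 2.75 on the log2 scale (edgeR adjusted p = 2.3e-06), while Adgre1 (0.14, adjusted p = 0.34) and Cd68 (−0.04, adjusted p = 0.72) did not pass. Most of the macrophage sum is Lyz2 (mean 7815 CPM in siControl and 4849 in siPAK4). Among the stellate markers, Col1a2 (mean 639 CPM in siControl and 269 in siPAK4), Col1a1 (328 and 122) and Acta2 (125 and 40.4) were lower. Dcn (425 and 480), Reln (30.9 and 34.7), Rgs5, Hand2 and Lhx2 did not pass.

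To show what lies upstream of the genes, the 250 bases before the annotated start are printed for Junb, Jund and Maff, the 3 genes that were higher with siPAK4. Fos and Jun are printed as the name-giving subunits. Egr2 is printed as the only gene with a serum response motif in the windows searched. The sequences are from RefSeq on build GRCm38.p6, the build also called mm10, and run 5′ to 3′ along the gene. Windows of 8 of the 10 genes were searched. Fosl1 and Egr1 were not searched, nor were bases farther upstream than 250. Capitals mark the motifs searched on both strands.
Junb (chr8:84978749-84978998, minus strand): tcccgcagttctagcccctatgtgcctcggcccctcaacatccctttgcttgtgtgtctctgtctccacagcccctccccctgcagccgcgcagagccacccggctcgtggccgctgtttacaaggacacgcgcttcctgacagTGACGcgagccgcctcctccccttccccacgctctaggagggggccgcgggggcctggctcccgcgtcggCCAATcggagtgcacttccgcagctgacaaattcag
Jund (chr8:70697489-70697738, plus strand): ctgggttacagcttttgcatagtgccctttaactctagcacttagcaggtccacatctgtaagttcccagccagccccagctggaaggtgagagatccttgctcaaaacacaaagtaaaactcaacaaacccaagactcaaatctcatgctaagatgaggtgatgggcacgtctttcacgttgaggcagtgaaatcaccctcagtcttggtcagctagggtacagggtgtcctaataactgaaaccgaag
Maff, start 2 of 3 (chr15:79347270-79347519, plus strand): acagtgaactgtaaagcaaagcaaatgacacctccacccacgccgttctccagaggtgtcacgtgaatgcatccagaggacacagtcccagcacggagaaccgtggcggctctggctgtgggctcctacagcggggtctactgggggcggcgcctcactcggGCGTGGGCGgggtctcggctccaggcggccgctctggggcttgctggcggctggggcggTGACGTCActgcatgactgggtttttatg
Jun (chr4:95052223-95052472, minus strand): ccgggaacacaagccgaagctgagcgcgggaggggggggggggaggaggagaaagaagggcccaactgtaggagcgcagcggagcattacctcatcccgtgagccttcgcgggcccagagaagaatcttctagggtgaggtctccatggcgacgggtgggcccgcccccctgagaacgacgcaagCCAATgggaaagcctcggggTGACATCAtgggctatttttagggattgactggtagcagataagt
Fos (chr12:85473640-85473889, plus strand): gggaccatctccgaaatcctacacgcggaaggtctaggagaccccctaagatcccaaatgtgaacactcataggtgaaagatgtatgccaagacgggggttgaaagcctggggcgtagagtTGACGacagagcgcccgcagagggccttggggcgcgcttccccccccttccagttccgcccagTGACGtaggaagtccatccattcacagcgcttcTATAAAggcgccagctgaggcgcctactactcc
Egr2, start 3 of 5 (chr10:67537619-67537868, plus strand): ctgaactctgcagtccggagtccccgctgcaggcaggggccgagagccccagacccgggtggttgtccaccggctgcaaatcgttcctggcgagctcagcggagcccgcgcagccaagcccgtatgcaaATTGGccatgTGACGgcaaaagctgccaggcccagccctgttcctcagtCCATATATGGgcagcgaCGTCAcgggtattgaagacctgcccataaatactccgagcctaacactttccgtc

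The motifs searched were the AP-1 site (TGACTCA or TGAGTCA), the cyclic AMP response element or CRE (TGACGTCA), its core (TGACG, which lies within the CRE), the JUN-type variant (TGACATCA), the EGR site (GCGNGGGCG), the CArG box bound by serum response factor, the TATA box (TATAAA) and CCAAT. No window of the 8 genes searched held the AP-1 site, which 4.46% of 32851 promoter windows of this length hold. The Jun window had the JUN-type variant from −45 to −38 relative to the start (held by 2.93% of windows) and CCAAT from −65 to −61 (33.8%). The printed Maff window had a CRE from −29 to −22 (1.55%) and an EGR site from −88 to −80 (4.70%). It was printed because it holds the most motifs of the 3 Maff windows, so the shares, which are per single window, understate how often the best of 3 would match. Start 1 of Maff held none of the motifs, and start 3 held the JUN-type variant from −45 to −38 and the CRE core. Of the bases of the start 3 window, 95 lie in annotated Maff exons. Fosb and Fosl2 also had an EGR site, but all 250 bases of the Fosl2 window lie in annotated Fosl2 exons. The Junb window had the CRE core (17.8%) and CCAAT, the Fos window the CRE core in 2 places and a TATA box (12.4%), and the Jund window none of the motifs. The printed Egr2 window held a CArG box from −72 to −63, a motif found in 1.47% of windows. Egr2 was printed because of this match and is 1 of 8 genes searched, so this share is no measure of how unusual the match is. A CArG box was in 4 of the 5 Egr2 windows, most of which overlap, and start 1 held no motif. These are matches of letters, and no binding was measured.

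Of the 10 genes, 3 were higher with siPAK4, 0 were lower and 7 did not pass the test at an adjusted p of 0.05. Over all 17975 tested genes 26.9% were called, 12.4% as higher and 14.5% as lower, so the share of the 10 genes called in either direction is close to the background. Their median log2 fold change was 0.21, against 0.01 over all tested genes. With library totals in place of TMM scaling, 4 of the 10 were called higher, but so were 21.6% of all genes, and 67.6% of all calls were then higher against 46.1% with TMM. The groups did not overlap for the same 3 genes, against 28.8% of tested genes in either direction and 14.0% with siPAK4 wholly above siControl.

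**Figure D1:**
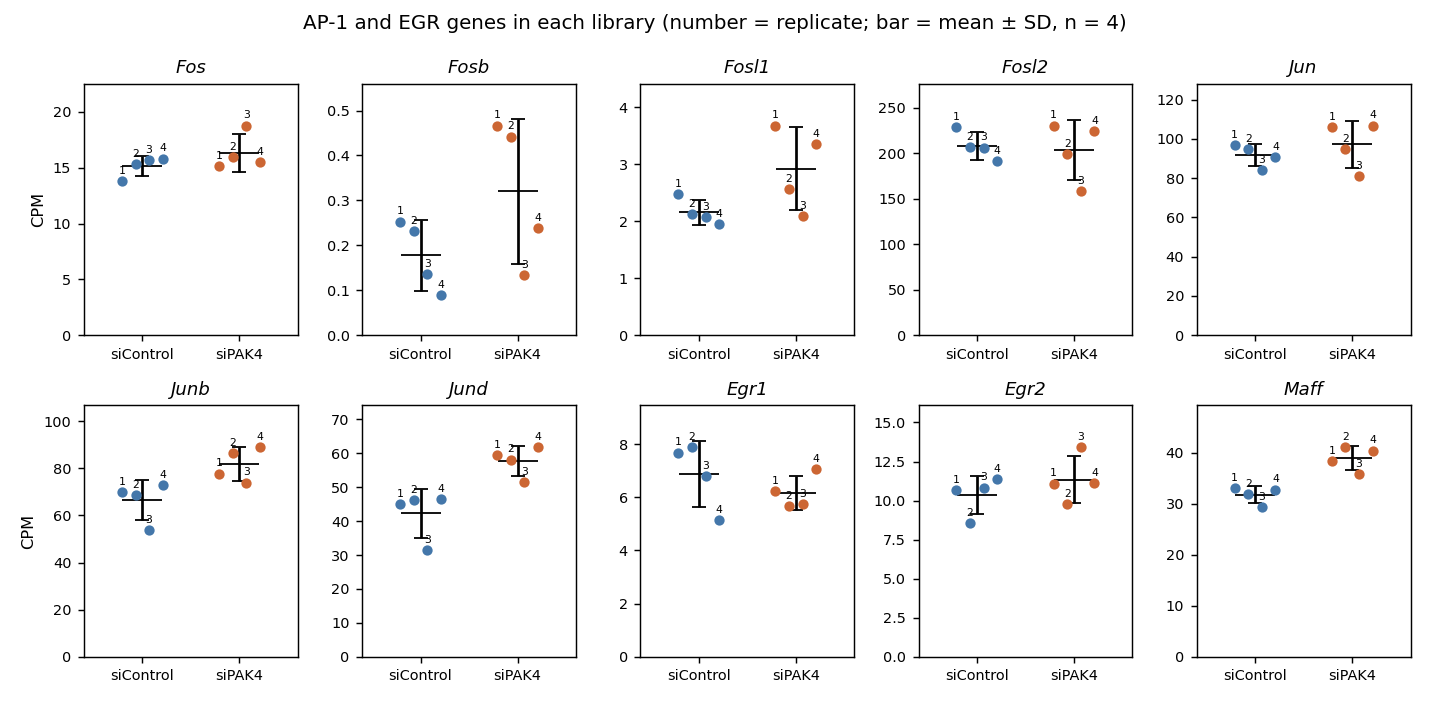
CPM (y axis, from 0, a separate scale for each gene) of the 10 genes in the 4 siControl and 4 siPAK4 libraries; points are libraries numbered by replicate, and bars are the mean ± SD. Junb, Jund and Maff are the genes whose siPAK4 libraries all lie above the siControl libraries.

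The JUN genes have no introns in the annotated principal transcript: Jun (NCBI gene 16476, mm10 chromosome 4, 95049036 to 95052222), Junb (16477, chromosome 8, 84976909 to 84978748) and Jund (16478, chromosome 8, 70697739 to 70700616) each consist of 1 exon. Reads from genomic DNA or unprocessed RNA therefore cannot be told apart from mRNA reads by splicing.

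Jund, the JUN gene usually described as constitutive and as a restraint on growth, changed most among the genes that passed. It stood at 45.0, 46.1, 31.5 and 46.4 CPM in siControl replicates 1 to 4 and at 59.6, 58.1, 51.6 and 61.75 CPM in siPAK4 replicates 1 to 4. All siPAK4 libraries were above all siControl libraries, and siControl replicate 3 was well below the other controls. The group means were 42.2 ± 7.18 and 57.7 ± 4.37 CPM (SD, n = 4 each), a rise of 1.37-fold (95% interval 1.15 to 1.62; log2 fold change 0.45, SE 0.113, edgeR adjusted p = 0.012). Without siControl replicate 3 the log2 fold change was 0.33 and the call held (adjusted p = 0.0091).

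Junb, whose protein is a weaker activator than JUN and can oppose it, rose by a smaller amount. Its level was 69.9, 68.65, 53.9 and 73.0 CPM in siControl replicates 1 to 4 and 77.8, 86.4, 73.9 and 88.9 CPM in siPAK4 replicates 1 to 4. The highest control and the lowest siPAK4 library were only 73.0 and 73.9 CPM, so the groups were barely apart. The rise was 1.23-fold (1.07 to 1.42; log2 fold change 0.30, SE 0.0941, edgeR adjusted p = 0.034). It lost the call without siControl replicate 2 (adjusted p = 0.065), siControl replicate 3 (0.069), siPAK4 replicate 2 (0.097) or siPAK4 replicate 4 (0.096), and over the 17 alternatives its adjusted p lay between 0.0077 and 0.097.

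Jun, the founding member of the family and the main target of the JNK kinases, did not pass. Its level was 96.7, 94.96, 84.1 and 90.7 CPM in siControl replicates 1 to 4 and 106, 94.95, 81.2 and 107 CPM in siPAK4 replicates 1 to 4. The groups overlapped, with siPAK4 replicate 3 the lowest library of all and siPAK4 replicates 1 and 4 the highest. The fitted ratio was 1.06 (0.933 to 1.21; edgeR adjusted p = 0.50).

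On the TPM scale, which corrects for transcript length, Junb made up 45.3 ± 1.30% of the JUN family transcripts in siControl and 46.8 ± 2.05% in siPAK4 (SD, n = 4 each). Jund went from 18.4 ± 1.33% to 21.1 ± 0.377%, and Jun from 36.4 ± 2.40% to 32.1 ± 1.91%. Jund shares ran from 16.4 to 19.3% in siControl and from 20.8 to 21.5% in siPAK4 and did not overlap. The family summed to 143 to 184 TPM in siControl and 170 to 225 TPM in siPAK4. TPM were not scaled by TMM. With library totals in place of TMM the median log2 fold change of all genes was 0.094 against 0.005, so these sums may overstate a rise.

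Among the FOS genes none passed. Fosl2 (14284, chromosome 5, 32136472 to 32157840), which encodes a FOS relative without a strong activation domain, was by far the most abundant of them, with 80.6 ± 1.64% of FOS family transcripts by TPM in siControl and 78.2 ± 3.73% in siPAK4. It stood at 229, 206, 206 and 191 CPM in siControl replicates 1 to 4 and at 230.5, 199, 158 and 225 CPM in siPAK4 replicates 1 to 4. The siPAK4 libraries spread more widely, with replicate 3 below every other library. The fitted ratio was 0.977 (0.833 to 1.15; edgeR adjusted p = 0.85), and its sign changed with the scaling (log2 fold change −0.03 with TMM and 0.06 with library totals).

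Fos (14281, chromosome 12, 85473890 to 85477274), the classic serum-induced subunit, was at 13.8, 15.3, 15.7 and 15.8 CPM in siControl replicates 1 to 4 and at 15.1, 15.9, 18.8 and 15.5 CPM in siPAK4 replicates 1 to 4. The lowest library was siControl replicate 1 and the highest siPAK4 replicate 3, and the groups overlapped. The ratio was 1.08 (0.946 to 1.22; edgeR adjusted p = 0.40).

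Fosl1 (14283, chromosome 19, 5447698 to 5455938), a FOS relative that is itself a target of AP-1 and of ERK signalling, was at 2.47, 2.13, 2.07 and 1.95 CPM in siControl replicates 1 to 4. In siPAK4 replicates 1 to 4 it was at 3.68, 2.57, 2.096 and 3.36 CPM. Replicates 1, 2 and 4 of siPAK4 were above every control, and replicate 3 was within the control range. The ratio was 1.36 (1.03 to 1.79; log2 fold change 0.44, SE 0.183, edgeR adjusted p = 0.097), which did not pass. Without siPAK4 replicate 3 it was called higher (log2 fold change 0.57, adjusted p = 0.017), and so it was with library totals (0.53, adjusted p = 0.046). Fosl1 overlaps Ccdc85b, a gene on the other strand with 7285 reads in all, and since the strand setting of the counting is not given in the sources used here, its reads may be shared; Ccdc85b had a log2 fold change of −0.08 (adjusted p = 0.71).

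Fosb (14282, chromosome 7, 19302696 to 19310118), which is prominent in neurons, had only 5 to 27 reads per library. It was at 0.253, 0.232, 0.136 and 0.0884 CPM in siControl replicates 1 to 4 and at 0.467, 0.442, 0.133 and 0.239 CPM in siPAK4 replicates 1 to 4. The groups overlapped, and at this depth the interval of its ratio reached from 0.874 to 3.69 (log2 fold change 0.85, edgeR adjusted p = 0.22).

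Maff (17133, chromosome 15, 79346621 to 79359078) had the smallest p of the 10 genes. Small MAF proteins pair with each other or with NRF and BACH factors and thereby can repress or activate antioxidant genes. Its level was 33.1, 31.9, 29.3 and 32.8 CPM in siControl replicates 1 to 4 and 38.35, 41.1, 35.9 and 40.4 CPM in siPAK4 replicates 1 to 4. The groups were well separated and each was tight. The rise was 1.23-fold (1.11 to 1.35; log2 fold change 0.29, SE 0.0658, edgeR adjusted p = 0.0066), and the adjusted p ran from 0.00055 to 0.028 over all alternatives.

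The EGR genes did not pass either. Egr1 (13653, chromosome 18, 34861207 to 34864956), a growth factor-induced activator, was at 7.68, 7.88, 6.79 and 5.13 CPM in siControl replicates 1 to 4 and at 6.22, 5.66, 5.74 and 7.05 CPM in siPAK4 replicates 1 to 4. The siControl libraries spanned the whole range, including the lowest and the highest value. The ratio was 0.898 (0.729 to 1.11; edgeR adjusted p = 0.45). Egr2 (13654, chromosome 10, 67534469 to 67542188), known from Schwann cells and from macrophages, ran from 8.56 to 11.35 CPM in siControl and from 9.76 to 13.4 CPM in siPAK4, highest in siPAK4 replicate 3. Its ratio was 1.1 (0.92 to 1.30; edgeR adjusted p = 0.44). These intervals leave room for modest changes in either direction.

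**Figure D2:**
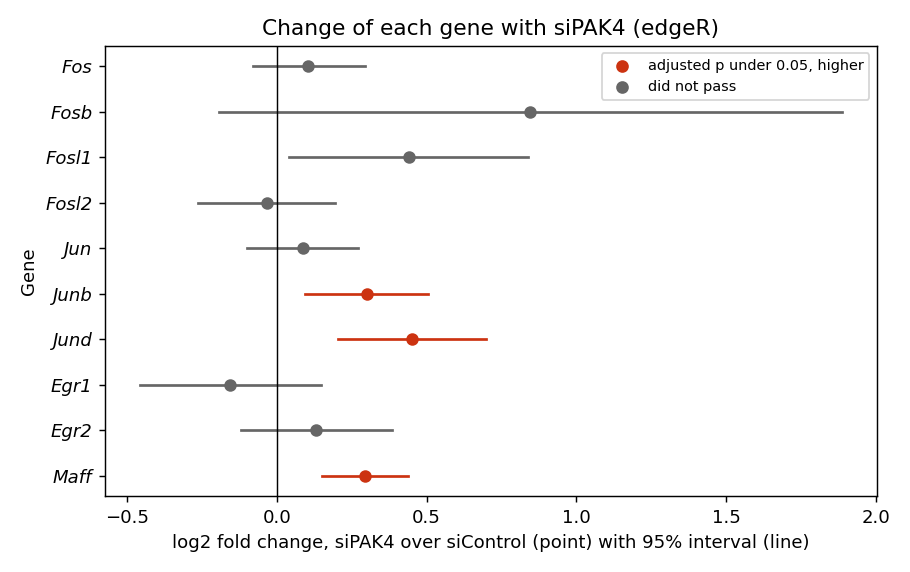
Log2 fold change of each gene, siPAK4 over siControl (x axis; points), with its 95% interval from the edgeR fit (lines). The 3 called genes lie between 0.29 and 0.45, and the intervals of Fos, Fosb, Fosl2, Jun, Egr1 and Egr2 include 0; that of Fosl1 does not, but its adjusted p of 0.097 did not pass.

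Ordered by TPM in siControl, Junb (77.1 ± 9.56) and Fosl2 (76.0 ± 7.40) came first and overlapped, followed by Jun (61.5 ± 4.55), then by Maff (33.9 ± 1.61) and Jund (31.4 ± 5.26), which overlapped. Fos (15.4 ± 0.694), Egr2 (7.45 ± 0.846), Egr1 (4.79 ± 0.960), Fosl1 (2.69 ± 0.339) and Fosb (0.0975 ± 0.0440) came next, each apart from its neighbours (SD, n = 4). In siPAK4 the order was the same but for Jund (44.2 ± 5.19 TPM), which was placed before Maff (43.2 ± 4.61), with overlapping ranges. There, Junb (97.8 ± 11.6), Fosl2 (76.6 ± 15.2) and Jun (67.3 ± 10.7) overlapped from one to the next, as did Egr1 (4.41 ± 0.466) and Fosl1 (3.78 ± 1.05).

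Within the groups the genes did not vary together as a single block. After the group means were taken out of the log2 CPM, Fosl1 and Fosl2 went together over the 8 libraries (Pearson r = 0.97, exact permutation p = 0.00174 within groups, adjusted p = 0.026; Spearman rho = 0.98, permutation p = 0.00347, adjusted p = 0.052). Fos went the opposite way to Fosl2 (r = −0.96, exact permutation p = 0.00174, adjusted p = 0.026; rho = −0.86, permutation p = 0.00174, adjusted p = 0.052) and to Fosl1 (r = −0.91, exact permutation p = 0.00174, adjusted p = 0.026; rho = −0.79, permutation p = 0.00347, adjusted p = 0.052). A p of 0.00174 is the smallest that the 576 permutations allow, and the adjustment was over the 45 pairs of genes. Without the 2 libraries farthest from the median of the first gene these r values were 0.94, −0.92 and −0.825, and without siPAK4 replicate 3 they were 0.95, −0.865 and −0.78. No other pair passed by Pearson's r, and none passed by rank. A pair that stood alone at the smallest p could not pass the adjustment over 45 pairs, so the pairs that did not pass stay undecided. Junb and Jund (r = 0.93, permutation adjusted p = 0.12; rho = 0.79, permutation adjusted p = 0.21) fell to an r of 0.47 without the 2 libraries farthest from the median, siControl replicate 3 and siPAK4 replicate 3. Without the same 2 libraries, Junb and Maff (r = 0.92, permutation adjusted p = 0.078) kept an r of 0.78. Jund and Maff (r = 0.81, permutation adjusted p = 0.16) fell to −0.136.

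**Figure D3:**
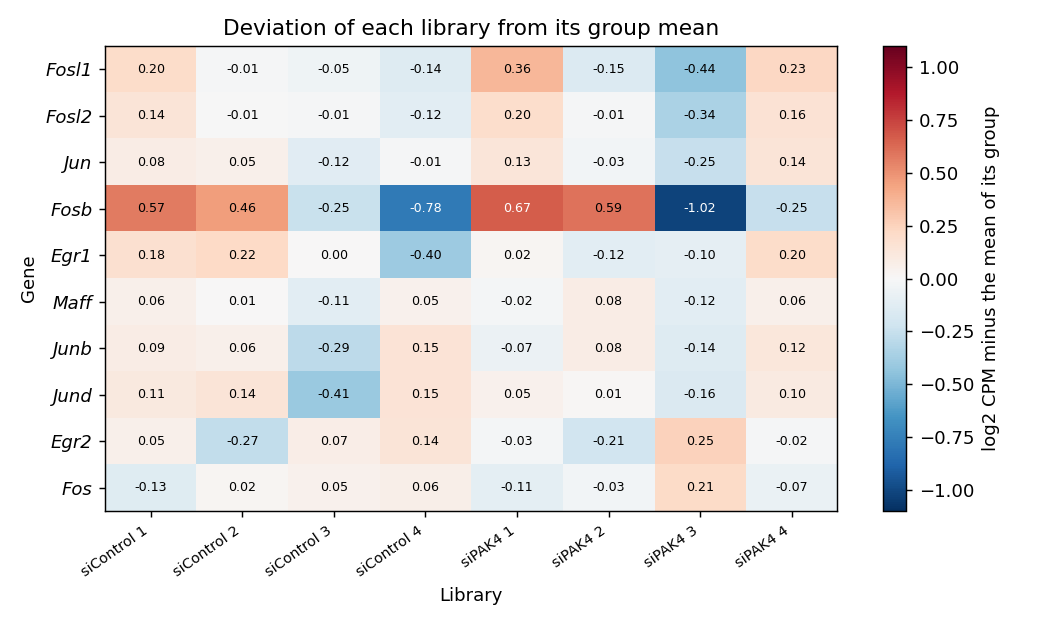
Log2 CPM of each gene (rows) in each library (columns) minus the mean of its group; red is above and blue below. In siPAK4 replicate 3, Fosb, Fosl1, Fosl2 and Jun are low (−1.02, −0.44, −0.34 and −0.25), while Fos and Egr2 are high (0.21 and 0.25).

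Of 11353 other genes with a mean of at least 5 CPM, those most like Fos within groups were the ribosomal protein gene Rpl5, the COP9 signalosome gene Cops8 and the kinesin gene Kif15, each with an r of 0.99 over 8 libraries. For Jun they were Ppp1r10, which encodes a nuclear phosphatase subunit (r = 0.99), the protocadherin gene Pcdhgb4 (0.98) and Ralgps1 (0.98). For Egr1 they were the haem synthesis gene Cpox, the secretase gene Bace1 and the matrix gene Ecm1, each with an r of 0.96. These were picked as the best of many in libraries that share depth and preparation, so the values are descriptions without a test.

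Genes around these factors were also counted, in 8 lists: 26 of the 95 that could be tested were higher and 21 lower, where 12.4% of all 17975 tested genes were higher and 14.5% lower. The counts of each list below are descriptions to be read against these same shares, and no list was tested as a set. Among 11 AP-1 relatives, 5 were higher and 2 lower, with a median log2 fold change of 0.06. Batf2, a leucine zipper gene induced by interferon, rose from 2.21 ± 0.180 CPM to a mean of 3.68 ± 0.570 (log2 fold change 0.74, edgeR adjusted p = 0.0026), and Mafk, another small MAF gene, rose by 0.30 (adjusted p = 0.0061). Atf3, a stress-induced partner of JUN, rose from 125 ± 4.79 CPM to a mean of 151 ± 16.8 (log2 fold change 0.26, adjusted p = 0.020), a call lost without siControl replicate 1 (adjusted p = 0.060) or siControl replicate 3 (0.053; 0.0032 to 0.060 over all alternatives).

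Of 5 tested EGR relatives and co-repressors, 2 were lower and 0 higher (median −0.33), and Egr4 had no read. Nab2, an EGR co-repressor that EGR proteins induce themselves, fell from 23.5 ± 1.67 CPM to a mean of 18.8 ± 0.839 (log2 fold change −0.33, SE 0.0702, edgeR adjusted p = 0.0053). Its relative Nab1 did not pass (0.16, adjusted p = 0.073), but passed without siControl replicate 1 (adjusted p = 0.047), without siPAK4 replicate 3 (0.048), with DESeq2 (0.047), with library totals (0.0071) and with FPKM (0.033). Wt1, a zinc finger gene related to the EGR family and also a mesothelial marker, fell by 0.97 on the log2 scale (adjusted p = 0.00029). The mesothelial markers, with Wt1 among them, summed to 151 to 181 CPM in siControl and 59.1 to 89.8 CPM in siPAK4. Upk3b (53.1 against 12.4 CPM) and Upk1b (53.5 against 24.0) were lower too. Gpm6a (log2 fold change −0.13), Krt19 (−0.10) and Msln (−0.01) did not pass. Why Wt1 fell was not tested.

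Of 6 regulators that act on serum response elements, 2 were lower and 0 higher (median −0.12). The actin-sensing SRF cofactor genes Mrtfa (−0.43, edgeR adjusted p = 0.013) and Mrtfb (−0.30, adjusted p = 0.011) fell, but neither passed on the FPKM scale (adjusted p = 0.060 or more), nor did Mrtfb with library totals (0.054). Srf itself (−0.03, adjusted p = 0.85) and the ternary complex factor genes Elk1 (−0.16, adjusted p = 0.14), Elk3 (0.01, adjusted p = 0.97) and Elk4 (−0.08, adjusted p = 0.59) did not pass.

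Of 19 MAP kinase cascade genes 3 were higher and 2 lower (median 0.04), a share close to the 26.9% called among all tested genes. Map2k2, which encodes an ERK-activating kinase, rose (0.26, edgeR adjusted p = 0.0072), and Map2k4, which encodes a JNK-activating kinase, fell (−0.23, adjusted p = 0.0077; 0.073 and 0.080 on the FPKM scale). Of 10 phosphatases that switch MAP kinases off, 5 were lower and 1 higher (median −0.16). Dusp14 fell from 24.0 ± 0.832 CPM to a mean of 6.42 ± 1.41 (log2 fold change −1.91, SE 0.129, edgeR adjusted p = 3.4e-06). Dusp10, whose product acts on JNK and p38 (−0.44, adjusted p = 0.0018), and the immediate early phosphatase gene Dusp1 (−0.38, adjusted p = 0.0013) fell as well.

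Other immediate early genes had 6 higher and 1 lower of 16 (median 0.11). Ier3 rose from 147 ± 9.75 CPM to a mean of 242 ± 3.01 (log2 fold change 0.72, edgeR adjusted p = 7.2e-06), the polo-like kinase gene Plk2 from 320 ± 5.66 CPM to a mean of 451 ± 5.61 (0.50, adjusted p = 2.4e-05), and Gadd45b, a stress gene that responds to NF-kB, from 48.7 ± 1.85 CPM to a mean of 74.8 ± 5.50 (0.62, adjusted p = 3.6e-05).

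Of 18 genes known as AP-1 targets, 7 were higher, 4 lower and 7 not called (median −0.05). The cell cycle gene Ccnd1 (−0.87, edgeR adjusted p = 1.1e-05) and the growth factor gene Hbegf (−0.67, adjusted p = 2.2e-05) fell, while Ptgs2, which encodes cyclooxygenase, rose (0.87, adjusted p = 9.3e-05). Timp1, the inhibitor of matrix metalloproteinases named above as a target of JUND, fell with no overlap between the groups. Its level went from 117.5 ± 7.92 CPM to a mean of 77.4 ± 12.35 (log2 fold change −0.60, SE 0.104, edgeR adjusted p = 0.0014). Timp1 was singled out after its values were seen. These are RNA values, and a link between Timp1 and Jund was not tested. The 11 known EGR1 targets were split as well, with 4 higher and 4 lower (median −0.04). Fn1, the fibronectin gene, fell from 3709 ± 398 CPM to a mean of 1512 ± 238 (log2 fold change −1.30, adjusted p = 1.5e-05), Fgf2 fell by 0.91 on the log2 scale (adjusted p = 5.9e-05) and the growth factor gene Pdgfa rose by 0.84 (adjusted p = 8.1e-05). Nab2 is in this list too.

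**Figure D4:**
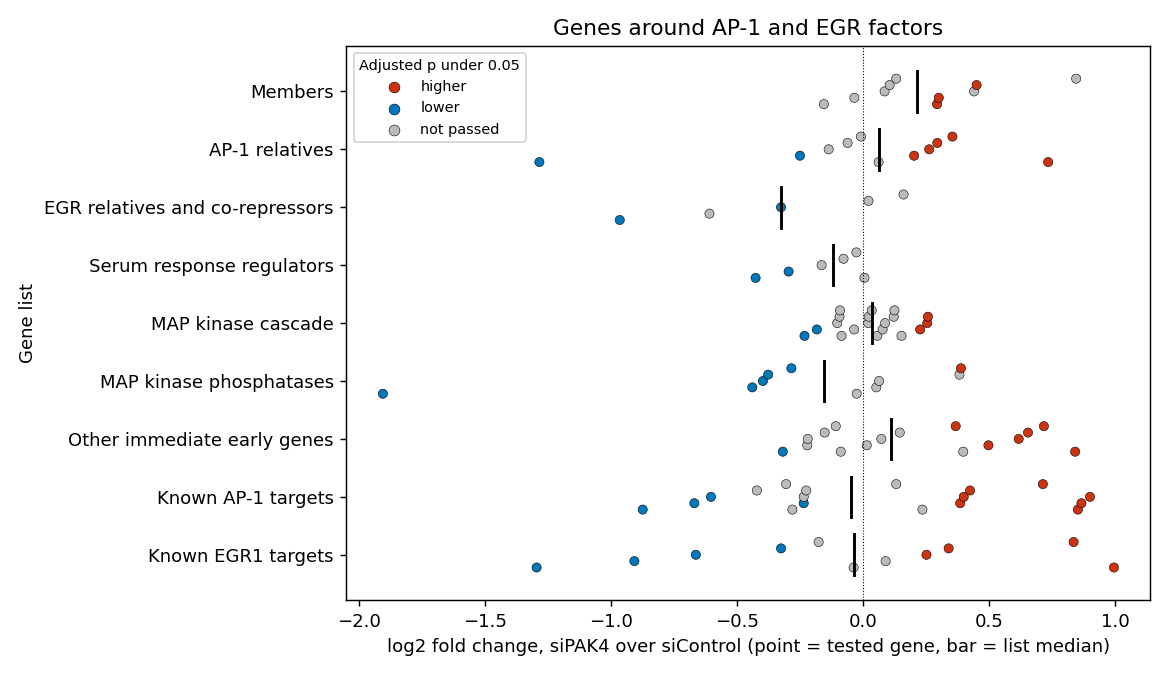
Log2 fold change, siPAK4 over siControl (x axis), of the 10 genes and of each tested gene of the 8 lists (rows); red points were higher and blue points lower at an adjusted p of 0.05, grey points did not pass, and black bars are medians. Dusp14 is the point farthest left at −1.91, and both target lists extend to either side of 0.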

How the data were processed

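Polyadenylated RNA of 4 siControl and 4 siPAK4 libraries was sequenced with a stranded mRNA kit from 1 µg of total RNA per library, per the labels' protocols. Per the file headers, the deposited table gives unnormalized read counts for 45777 genes, beside FPKM and TPM columns made by the authors. Listed in the submitters' processing notes are StringTie 2.1.3b, HISAT2 2.1.0, Bowtie2 2.3.4.1, FastQC 0.11.7, bcl2fastq 2.20.0 and build mm10. How reads were counted, and with which strand setting, is not given in the sources used here.

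Genes kept by filterByExpr (minimum count 10) were compared by edgeR 4.0.16 with TMM scaling and its robust quasi-likelihood test. P-values of the 17975 genes were adjusted by Benjamini-Hochberg (threshold 0.05), and standard errors come from the F statistic. Levels between genes are in TPM. Alternatives used limma 3.58.1 (voom, or FPKM on the log2 scale with a pseudocount of 1 or 0.1), DESeq2 1.42.0, other scalings and filters, a block on replicate number, and each library left out. Coordinates are from RefSeq GRCm38.p6, counted from 1, and exon numbers from GENCODE. Replicates differed beyond sampling noise in every pair (chi-square per degree of freedom 12.7 to 67.8).

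The genes and lists were chosen with earlier results of these data known. All 10 genes are named. Up to 3 genes per list are named by smallest adjusted p, besides Nab1, Nab2, Srf, Elk1, Elk3, Elk4, Mrtfa, Mrtfb, Atf3 and Dusp1, and for Fos, Jun and Egr1 the 3 most similar genes. Timp1 was added outside this rule. Some genes that this rule would name are not reported here.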

Additional observations from a re-analysis of the deposited data

Results flagged for a closer look

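In siControl, Jund in replicate 3 stood apart from the other 3 control libraries, at 31.5 CPM against 45.0 to 46.4 CPM. It was the lowest of 4, and its gap to the next library was 0.905 of the whole range, above Dixon's critical value for 4 samples. A total of 22 sets of 4 libraries (the 10 genes and Pak4 in either group) were screened, and chance alone marks about 1 in 20.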

How the results depend on the processing

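Of 17 alternatives, Jund and Maff kept their direction and call in each, Junb lost its call in 4 that leave out a library, and Fosl1 gained one in 2. Between 2 and 4 of the 10 genes were higher and 0 lower when a library was left out, and Pak4 ran from −1.555 to −1.362. Library totals raised the number of higher genes to 3877, and FPKM gave 3601 higher and 1715 lower (pseudocount 1) or 3606 and 1714 (pseudocount 0.1), with 13 of the list genes lower in either case; the cause was not tested. Library totals moved the median of all genes from 0.01 to 0.09. Log2 fold changes close to 0 reversed, and the cause was not tested: with library totals Fosl2 was 0.056, Srf 0.064 and Elk4 0.013, with FPKM Fosl2 was 0.047 and 0.048 and Srf 0.05 and 0.056, and with voom Elk3 was −0.00062. When a library was left out, Fosl2 ran from −0.1 to 0.067, Srf from −0.065 to 0.041 and Elk3 from −0.042 to 0.076. Same-numbered libraries of the groups did not deviate together over all tested genes (r from −0.051 to 0.095). The labels do not say whether they were prepared in pairs, and these r values cannot show it. In replicate 3 of both groups, Fosb, Fosl1, Fosl2, Jun, Junb, Jund and Maff were below their group mean, and Fos and Egr2 above. The sizes differed between the groups. Fosl2 (−0.01), Fosl1 (−0.051), Fos (0.051) and Egr2 (0.072) were near the mean in siControl replicate 3, against −0.345, −0.443, 0.208 and 0.25 in siPAK4 replicate 3. Junb (−0.29) and Jund (−0.405) deviated more in siControl than in siPAK4 (−0.141 and −0.159), and Maff alike (−0.113 and −0.116). With the replicate block 2056 genes were higher and 2531 lower. Junb (0.306, edgeR adjusted p = 0.0077 against 0.034 without the block), Jund (0.465, adjusted p = 0.002 against 0.012) and Maff (0.293) stayed called, and Elk3 was −0.00038. Without a filter 28490 genes were tested, and with a mean of at least 1 CPM Fosb was not tested. Counts of 5 to 27 reads limit Fosb; the other 9 genes had at least 110 reads in each library.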
